A study of Mus musculus with 9 samples.

Results

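The Rab genes encode the largest family of Ras-related small GTPases, and 59 of them were measured among 18193 genes on mouse expression arrays of Neuro2a cells, a neuroblastoma line. Members were taken by symbol: a gene belonged to the set when its annotated symbol was Rab followed by a number and at most a letter and a further digit, so that Rab effectors and regulators with longer names stayed out. The 59 genes had 132 probe sets that the annotation assigned to a single gene, 38 of them had more than 1, and the brightest probe set, by its mean on the 9 arrays, stood for each gene. The cells had received, for 48 h, siRNA against Myt1 (siMyT1), siRNA against Kdm1a, whose product is the histone demethylase LSD1 (siLSD1), or a control siRNA (siControl), and each of these groups has 3 arrays. The product of Myt1, a zinc finger protein of the developing nervous system, is named in the title of the series as a component of an LSD1 complex in neural cells. The comparisons ask which RNA levels differ after either siRNA, and the arrays measured no protein. The labels name no further treatment. They are silent on whether replicate arrays stand for independent cultures, and the p-values may therefore reflect technical spread alone. RNA came from whole cultures, so a lower value can mean less RNA in each cell or fewer cells that hold it, and these cannot be told apart.

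A Rab protein cycles between a GDP-bound form, held in the cytosol by GDI, and a GTP-bound form that sits on a membrane by its prenyl groups and recruits effectors such as tethers and motors. Exchange factors switch it on and GTPase-activating proteins switch it off. Each Rab marks its own compartments: Rab1 and Rab2 act between the endoplasmic reticulum and the Golgi, Rab5 on early endosomes, Rab11 on recycling endosomes and Rab7 on late endosomes. In neurons and neuroendocrine cells the Rab3 and Rab27 proteins act on synaptic and dense-core vesicles before their release.

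Intensities are given in the deposited units, whose scaling is unknown, so levels are compared between groups for the same probe set and not between genes. A probe set with a mean under 0.611 units over all arrays is called dim below. Of the 59 Rab genes 16 were dim and 43 were not. Changes are log2 fold changes of the value plus a pseudocount of 0.196 units, which understates changes of dim genes, and a gene is said to rise or fall where limma gave an adjusted p under 0.05 over all genes. Both siRNAs lowered their targets. Myt1 measured 0.66 ± 0.207 units in siMyT1, 6.95 ± 0.724 in siLSD1 and 4.9 ± 0.342 in siControl, and Kdm1a measured 30.9 ± 1.59 units in siMyT1, 4.49 ± 0.395 in siLSD1 and 29.05 ± 1.02 in siControl (SD, n = 3 each). Of 10 markers of the neuroblastoma lineage 9 were measured and none was dim, with summed intensities of 183 to 195 units in siMyT1, 249 to 277 in siLSD1 and 231 to 247 in siControl. Of the markers of other cell types, 4 of 5 for fibroblasts, 3 of 4 for macrophages and 3 of 4 for epithelial cells were dim. The summed fibroblast markers measured 2.09 to 2.56 units in siMyT1, 1.32 to 1.53 in siLSD1 and 1.38 to 1.83 in siControl, with Col1a1, Col1a2, Col3a1 and Pdgfra dim. The other marker, Dcn, measured 1.29 ± 0.0763 units in siMyT1, 0.648 ± 0.0873 in siLSD1 and 0.777 ± 0.0535 in siControl and was called higher in siMyT1 than in siControl (0.61, adjusted p = 0.0292) and than in siLSD1 (0.82, adjusted p = 0.00221). The macrophage markers summed to 1.18 to 1.35 units in siMyT1, 0.867 to 1.32 in siLSD1 and 1.09 to 1.2 in siControl, and the epithelial markers to 1.54 to 2.35 in siMyT1, 1.62 to 1.87 in siLSD1 and 1.5 to 2.57 in siControl. Bright probe sets weigh most in these sums, and the neuroblastoma markers did not move as 1. In siMyT1 against siControl, Phox2a, Hand2, Chga and Chgb fell (-0.33, -0.46, -0.43 and -0.71), and the others gave -0.49 to 0.36 and were not called. In siLSD1 against siControl, Phox2a, Gata2 and Tubb3 rose (0.39, 0.62 and 0.42) and Hand2 fell (-0.38). The part of these markers in the Rab results was not tested.

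After siMyT1, 4 Rab genes rose (Rab32, Rab13, Rab3c and Rab8b) and 4 fell (Rab40b, Rab12, Rab33b and Rab14). After siLSD1, Rab32 rose, and Rab22a and Rab3a fell. Set directly against siLSD1, siMyT1 had higher levels of 9 Rab genes and lower levels of 5, and 7 of these 14 passed the test against siControl in neither knockdown. The 8 calls in siMyT1 were 13.6% of the 59 members, beside 7.41% of all genes (5.12% higher and 2.29% lower), and the 3 calls in siLSD1 were 5.08%, beside 8.90% of all genes (3.97% higher and 4.93% lower). The 14 calls between the knockdowns were 23.7%, beside 18.8% of all genes (13.2% higher and 5.58% lower). Among genes that were not dim these shares were 12.5%, 15.3% and 31.2%, and 7, 3 and 12 of the 43 such Rab genes were called. In all, 17 Rab genes were called in at least 1 comparison and 42 in none. The matching counts over all genes were not taken. Neither these numbers nor the 7 above are therefore read as a result about the Rab genes.

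The balance of directions depended on the scaling of the arrays. Median centring moved the difference between siMyT1 and siLSD1 by -0.13 for every gene, and the split of Rab calls became 3 higher and 9 lower, or 9 and 10 after quantile normalization, in place of 9 and 5. Of the calls over all genes, 70.3% were higher as deposited, 42.4% after median centring and 55.7% after quantile normalization. In siMyT1 against siControl the split of 4 and 4 became 4 higher and 6 lower after median centring and 7 and 6 after quantile normalization. Over all genes 69.1% of these calls were higher as deposited, then 56.9% and 55.6%. In siLSD1 against siControl 1 and 2 stayed so after median centring and became 4 and 4 after quantile normalization. Over all genes 44.6% were higher as deposited, then 66.2% and 50.8%. None of the called Rab genes changed sign under these scalings. The 3 counts of 8, 3 and 14 fell to 4 and 1 without siControl replicate 1 for the comparisons with siControl, to 5 and 8 without siMyT1 replicate 3, to 1 and 9 without siLSD1 replicate 3, and, between the knockdowns, to 9 without siLSD1 replicate 1. The shares over all genes, 7.41%, 8.90% and 18.8%, fell as well. In the same order they became 3.57% and 5.33%, then 3.90% and 13.3%, then 5.30% and 12.8%, and 16.2% between the knockdowns.

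**Figure D1:**
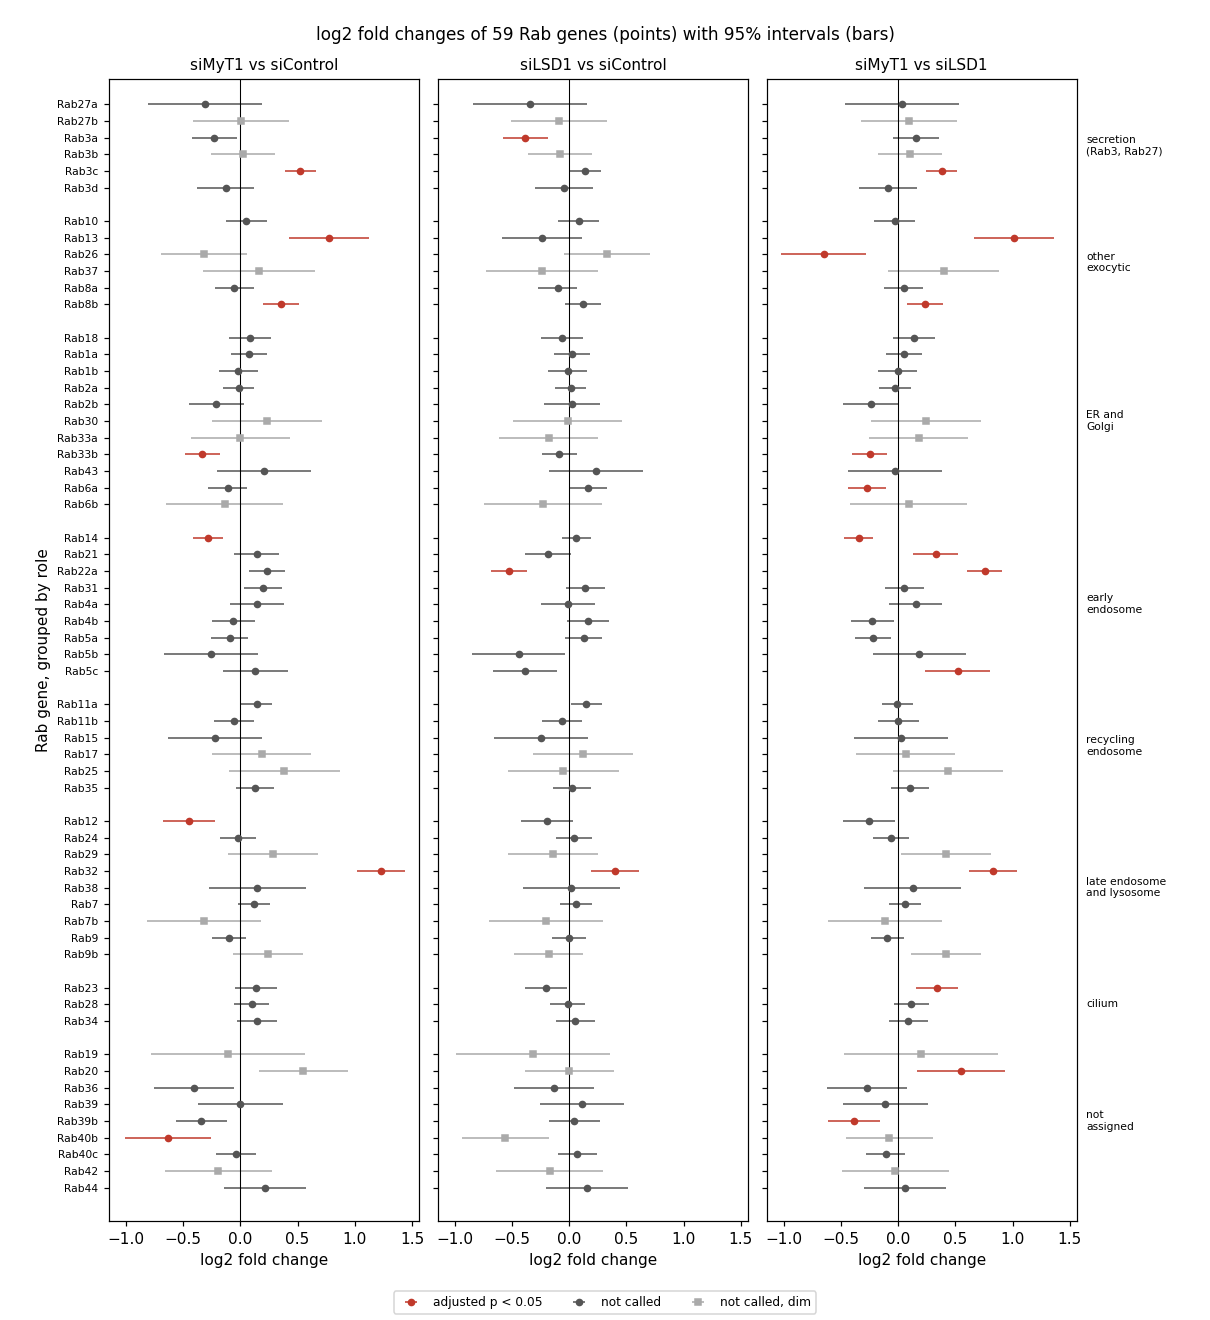
Log2 fold changes of the 59 Rab genes, grouped by the role of the protein and listed down the page, in siMyT1 against siControl (left), siLSD1 against siControl (middle) and siMyT1 against siLSD1 (right). Points are limma estimates from 3 arrays a group, bars are 95% intervals, red marks adjusted p under 0.05, and grey squares mark dim genes that were not called. Rab32 lies to the right of 0 in all 3 panels, while Rab22a lies to the left in siLSD1 and to the right in siMyT1 against siLSD1.

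Of the 6 secretory genes, the Rab3 and Rab27 genes, Rab3c rose after siMyT1, Rab3a fell after siLSD1, and Rab3d, Rab27a, Rab3b and Rab27b passed the test in no comparison. Rab3c, a vesicle GTPase close to Rab3a, measured 38.3, 36.96 and 38.7 units on the siMyT1 arrays, 31.00, 28.6 and 27.9 on the siLSD1 arrays and 26.4, 27.8 and 24.99 on the siControl arrays. All siMyT1 arrays lay above all others, and the siLSD1 arrays lay just above the siControl arrays. The level in siMyT1 was 144% of that in siControl (log2 fold change 0.52, SE 0.06, adjusted p = 0.000326), and siMyT1 was also above siLSD1 (log2 difference 0.38, SE 0.06, adjusted p = 0.000918). The second difference did not pass with median centring (adjusted p = 0.0827). The difference between siLSD1 and siControl did not pass the test (0.14, adjusted p = 0.213). The rise in siMyT1 held without each array in turn, with log2 fold changes of 0.48 or more. Its promoter window, from 250 bases before to 50 after the gene start, is printed here, with those of Rab13, Rab22a and Rab32 further on, because these 4 genes had a call that held without each array and in the other settings tried. It lies at chr13:110280157-110280456 of GRCm38.p6, minus strand, and in each window capitals mark AAGTT on either strand, the core of the sites that Myt1 family zinc fingers bind, and the Rab3c window has none.
Rab3c: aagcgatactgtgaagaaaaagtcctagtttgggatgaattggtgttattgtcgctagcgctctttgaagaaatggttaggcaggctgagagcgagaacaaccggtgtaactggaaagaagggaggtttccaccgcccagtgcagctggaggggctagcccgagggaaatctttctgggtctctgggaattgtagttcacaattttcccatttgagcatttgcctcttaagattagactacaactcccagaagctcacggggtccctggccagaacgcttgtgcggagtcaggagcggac

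Rab3a, the main Rab of synaptic vesicles, measured 7.08, 8.96 and 7.17 units on the siMyT1 arrays, 7.32, 6.56 and 6.78 on the siLSD1 arrays and 8.93, 9.7 and 8.52 on the siControl arrays. The siLSD1 arrays were all below the siControl arrays, and the siMyT1 arrays overlapped both. The fall in siLSD1 (log2 fold change -0.38, SE 0.09, adjusted p = 0.0185) was lost without siLSD1 replicate 2 or 3, or siControl replicate 1 or 2 (adjusted p up to 0.0729). It also did not pass with the mean over probe sets (log2 value -0.11), suffixed probe sets left out (log2 value 0.17) or no intensity trend (adjusted p up to 0.661). Suffixed probe sets are those whose names end in _x_at, _s_at or _a_at. In siMyT1 the difference from siControl was -0.23 (adjusted p = 0.17). Rab3d, known from secretory granules of exocrine and other cells, measured 1.78 ± 0.161 units in siMyT1, 1.9 ± 0.0855 in siLSD1 and 1.97 ± 0.156 in siControl, with 95% intervals of -0.38 to 0.12 for siMyT1 and -0.30 to 0.21 for siLSD1 against siControl. Rab27a, which docks secretory granules and melanosomes, measured 0.775 ± 0.156 units in siMyT1, 0.768 ± 0.248 in siLSD1 and 1.01 ± 0.259 in siControl. Its wider intervals, of -0.81 to 0.19 in siMyT1 and -0.84 to 0.16 in siLSD1, span 0. Rab3b and Rab27b, paralogues of Rab3a and Rab27a, were dim, at 0.0622 and 0.339 units in siMyT1, 0.0444 and 0.30 in siLSD1 and 0.0576 and 0.331 in siControl.

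**Figure D2:**
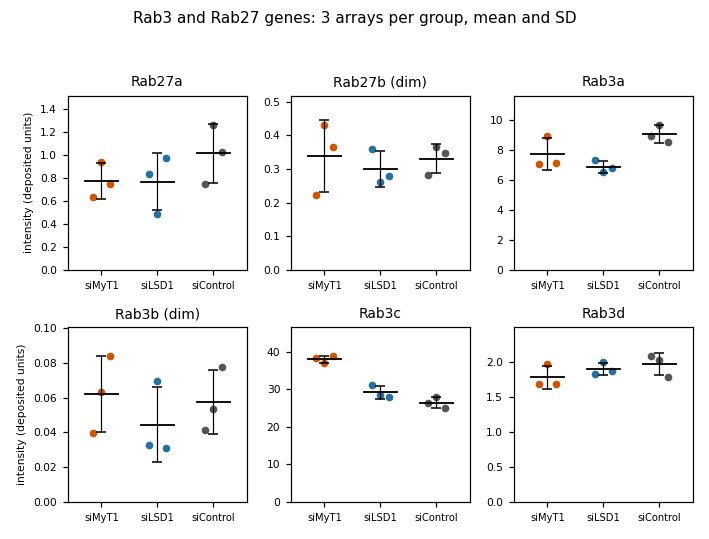
Intensities of the Rab3 and Rab27 genes in deposited units on the 3 arrays of siMyT1, siLSD1 and siControl, on a linear axis from 0 (points: arrays, lines: means, bars: SD). Rab3c stands above both other groups in siMyT1, Rab3a is lowest in siLSD1, and Rab27b and Rab3b are dim.

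Other probe sets of the Rab3 genes gave part of this picture a different shape in siLSD1. For Rab3a the probe set used is of a type that can cross-hybridise. The other, at 2.63 units in siLSD1 and 2.32 in siControl, did not fall (log2 fold change 0.17, adjusted p = 0.532 in a fit over all probe sets). Of the 4 Rab3c probe sets that were not dim, 3 rose in siMyT1, by 0.52, 0.57 and 0.71, and the weakest gave -0.02, adjusted p = 0.974. In siLSD1 the third of these rose as well (0.52, adjusted p = 0.00133), where the other 2 gave 0.14 and 0.07 and did not pass. For Rab3d, a second probe set rose in siLSD1 (0.47, adjusted p = 0.0413), and the 1 used gave -0.04. That second probe set was also lower in siMyT1 than in siLSD1 (-0.53, adjusted p = 0.0129), where the 1 used gave -0.09. The siMyT1 rise of Rab3c was thus seen by several probe sets, and the siLSD1 readings of all 3 Rab3 genes depended on the probe set. Over the family, 26 genes had more than 1 probe set that was not dim, and all of a gene's such probe sets had the same sign for 15 in siMyT1 against siControl, 11 in siLSD1 against siControl and 20 in siMyT1 against siLSD1. No Rab gene that was called had another probe set called in the opposite direction. In these comparisons, in the same order, 5, 2 and 8 of the called genes had another probe set. For 2, 0 and 5 of them another was called in the same direction.

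**Figure D3:**
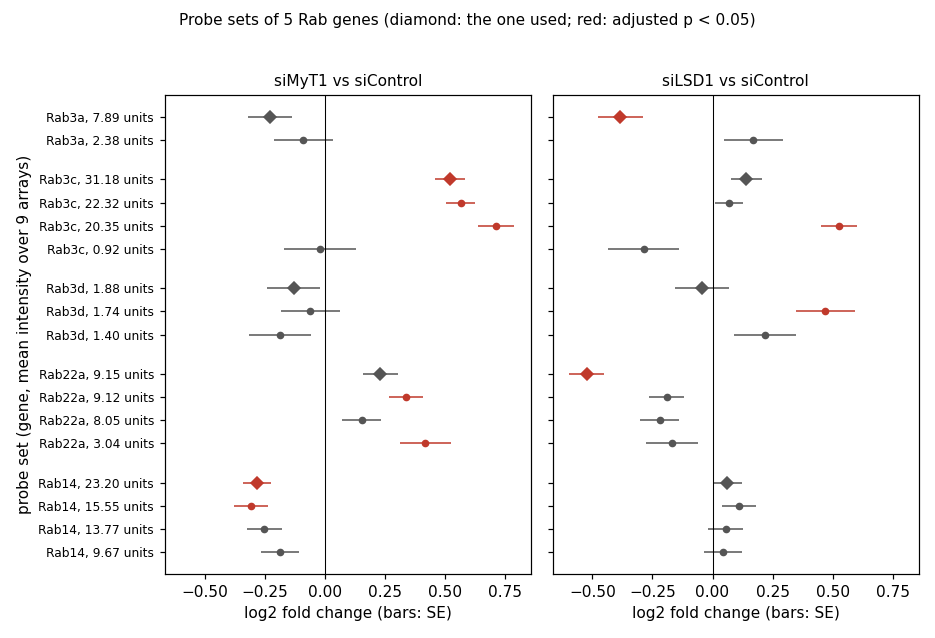
Log2 fold changes with SE for every probe set that was not dim of Rab3a, Rab3c, Rab3d, Rab22a and Rab14, against siControl, for siMyT1 (left) and siLSD1 (right). The axis gives each probe set's mean intensity, the diamond is the probe set that stood for the gene, and red marks adjusted p under 0.05 in a fit over all probe sets. The brightest 3 Rab3c probe sets lie at 0.52 to 0.71 in siMyT1, while those of Rab3a fall on opposite sides of 0 in siLSD1.

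Set beside the other 53 Rab genes, the 6 secretory genes had a median log2 fold change of -0.06 in siMyT1, against 0.05 for the others and 0.05 for all genes. In siLSD1 these medians were -0.08, -0.01 and -0.03, and in siMyT1 against siLSD1 0.10, 0.06 and 0.09. By count, 1 of 6 secretory genes was called in each comparison, beside 7, 2 and 13 of the 53 others in the same order. Of all genes 7.41%, 8.90% and 18.8% were called, and these shares also stand beside the counts of the role groups below. With 6 genes, 2 of them dim, nothing particular to the secretory genes is read from these values.

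Of the 6 genes for other exocytic and polarised transport, Rab13 and Rab8b rose in siMyT1 and none was called in siLSD1. Rab13, which acts in traffic to the plasma membrane and at tight junctions, measured 1.73, 2.53 and 2.26 units on the siMyT1 arrays, 1.18, 0.828 and 0.923 on the siLSD1 arrays and 1.16, 1.19 and 1.17 on the siControl arrays. The siMyT1 arrays were above all others, and the siLSD1 arrays overlapped the siControl arrays. The siMyT1 level was 185% of siControl (log2 fold change 0.78, SE 0.16, adjusted p = 0.0119), a call lost without siMyT1 replicate 2 or 3 (adjusted p up to 0.0552). The excess of siMyT1 over siLSD1 (log2 difference 1.01, SE 0.16, adjusted p = 0.000752) held without each array and in the other settings tried. RefSeq gives Rab13 a pair of windows on the plus strand of GRCm38.p6. The first, at chr3:90213465-90213764, holds neither AAGTT nor GGGCGG, and the second, at chr3:90220534-90220833, has 1 of each.
Rab13 first window: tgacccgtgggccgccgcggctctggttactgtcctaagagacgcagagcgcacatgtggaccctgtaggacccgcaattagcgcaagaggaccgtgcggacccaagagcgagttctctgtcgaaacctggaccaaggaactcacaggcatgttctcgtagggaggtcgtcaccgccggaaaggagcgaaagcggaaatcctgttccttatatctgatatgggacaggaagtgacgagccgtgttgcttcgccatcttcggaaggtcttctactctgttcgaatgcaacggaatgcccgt
Rab13 second window: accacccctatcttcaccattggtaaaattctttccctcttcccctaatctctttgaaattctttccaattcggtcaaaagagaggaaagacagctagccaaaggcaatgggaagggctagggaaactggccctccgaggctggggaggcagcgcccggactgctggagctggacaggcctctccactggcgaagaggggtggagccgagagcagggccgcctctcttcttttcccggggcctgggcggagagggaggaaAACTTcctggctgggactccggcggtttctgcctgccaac

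Rab8b, which carries Golgi-derived vesicles to the cell surface, measured 6.6, 7.23 and 6.88 units on the siMyT1 arrays, 5.86, 5.8 and 5.83 on the siLSD1 arrays and 5.17, 5.79 and 5.1 on the siControl arrays. All siMyT1 arrays lay above the siLSD1 arrays, which lay just above the siControl arrays, and Rab8b rose in siMyT1 (log2 fold change 0.36, SE 0.07, adjusted p = 0.0098), a call lost without siControl replicate 1 (adjusted p up to 0.0533). The call ended as well with the mean over probe sets (log2 value 0.047, adjusted p = 0.92). That mean takes in another Rab8b probe set, which was dim at 0.0625 units over all arrays. Its excess over siLSD1 (log2 difference 0.24, adjusted p = 0.0363) was lost without siMyT1 replicate 2 or 3, or siLSD1 replicate 1, 2 or 3 (adjusted p up to 0.126). The call was further lost with median centring (log2 value 0.11), the mean over probe sets (log2 value -0.023), no intensity trend or the replicate number as a block (adjusted p up to 0.942). Rab26, a GTPase of synaptic vesicle clusters, was dim at 0.0449 units in siMyT1, 0.18 in siLSD1 and 0.108 in siControl. It was lower in siMyT1 than in siLSD1 (-0.65, adjusted p = 0.0187), a call lost without siMyT1 replicate 3, or siLSD1 replicate 1 (adjusted p up to 0.0761). Rab10, Rab8a and the dim Rab37 had no call. Their log2 fold changes against siControl were 0.05, -0.05 and 0.16 in siMyT1 and 0.08, -0.10 and -0.23 in siLSD1.

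Among 11 genes of ER and Golgi traffic, Rab33b fell in siMyT1 and none was called in siLSD1. Rab33b, a Golgi Rab that also takes part in autophagosome formation, measured 5.62, 6.54 and 6.01 units on the siMyT1 arrays, 7.32, 7.02 and 7.33 on the siLSD1 arrays and 7.68, 7.94 and 7.38 on the siControl arrays. The 3 groups did not overlap, with siMyT1 lowest and siControl highest (log2 fold change -0.33, SE 0.07, adjusted p = 0.013). The call was lost without siMyT1 replicate 3, or siControl replicate 1 (adjusted p up to 0.055). Nor did the gene pass with no intensity trend (adjusted p = 0.055). The deficit against siLSD1 (-0.25, adjusted p = 0.0261) was lost without siMyT1 replicate 1 or 3, or siLSD1 replicate 1 or 3 (adjusted p up to 0.0939). It also did not pass with no intensity trend or the replicate number as a block (adjusted p up to 0.0718). Rab6a, the Rab of traffic within and back from the Golgi, measured 31.8, 34.1 and 32.8 units on the siMyT1 arrays, 39.2, 41.6 and 38.5 on the siLSD1 arrays and 33.6, 40.5 and 32.96 on the siControl arrays. The siMyT1 arrays were below the siLSD1 arrays (log2 difference -0.27, SE 0.08, adjusted p = 0.0254), and the siControl arrays overlapped both. The call was lost without siMyT1 replicate 1, 2 or 3, or siLSD1 replicate 2 or 3 (adjusted p up to 0.0804). The call ended as well with no intensity trend (adjusted p = 0.0914). The other Rab6a probe sets, both suffixed, gave -0.19 and -0.65 (adjusted p = 0.0747 and 0.0321 in a fit over all probe sets). Rab1a, which drives transport from the ER to the Golgi, and Rab2a, which acts on the return path, gave 0.08 and -0.01 in siMyT1 and 0.03 and 0.01 in siLSD1 against siControl, with 95% intervals within -0.08 to 0.23 for Rab1a and -0.15 to 0.12 for Rab2a in siMyT1. Rab1b, Rab2b, Rab18 and Rab43 were not called in any comparison, nor were the dim Rab6b, Rab30 and Rab33a.

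The 9 genes of early endosomes held the largest fall after siLSD1 among the Rab genes that were called, that of Rab22a. Rab22a, which directs cargo out of early endosomes for recycling, measured 10.8, 11.3 and 11.7 units on the siMyT1 arrays, 6.83, 6.2 and 6.77 on the siLSD1 arrays and 9.96, 10.04 and 8.76 on the siControl arrays. The 3 groups were fully separate, with siLSD1 lowest and siMyT1 highest. The level in siLSD1 was 68.9% of siControl (log2 fold change -0.52, SE 0.07, adjusted p = 0.000454), and the difference between siMyT1 and siControl did not pass the test (0.23, adjusted p = 0.0722), though it did after quantile normalization, with a filter on dim genes and with the mean over probe sets. In siMyT1 against siControl all 4 of its probe sets were higher, by 0.15 to 0.42, and 2 others than the 1 used passed the test (0.34 and 0.42, adjusted p = 0.0213 and 0.048). The log2 difference of siMyT1 from siLSD1 was 0.76 (SE 0.07, adjusted p = 1.52e-05), and both calls held without each array and in the other settings tried. All 4 of its probe sets were lower in siLSD1 than in siControl, by -0.17 to -0.52, though only the 1 used passed the test, and all 4 gave a called excess in siMyT1 over siLSD1, of 0.37 to 0.76. The Rab22a window lies at chr2:173659595-173659894 of GRCm38.p6, plus strand, holds 7 GGGCGG boxes on either strand and has no AAGTT.
Rab22a: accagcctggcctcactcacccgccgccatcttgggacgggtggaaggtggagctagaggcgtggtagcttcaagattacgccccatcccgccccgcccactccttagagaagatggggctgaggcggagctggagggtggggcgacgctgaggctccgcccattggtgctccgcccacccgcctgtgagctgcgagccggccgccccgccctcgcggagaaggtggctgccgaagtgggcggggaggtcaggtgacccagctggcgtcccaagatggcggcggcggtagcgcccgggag

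Rab14, which moves cargo between the trans-Golgi network and endosomes, fell in siMyT1 and measured 19.1, 19.8 and 20.9 units on the siMyT1 arrays, 26.4, 24.5 and 25.1 on the siLSD1 arrays and 23.4, 25.2 and 24.3 on the siControl arrays. All siMyT1 arrays were below the rest, at 82.1% of siControl (log2 fold change -0.28, SE 0.06, adjusted p = 0.0121) and 78.7% of siLSD1 (-0.34, adjusted p = 0.00126). The fall against siControl was lost without siMyT1 replicate 2 (adjusted p up to 0.0519). The call was further lost with the mean over probe sets (log2 value -0.13) or no intensity trend (adjusted p up to 0.489). The difference from siLSD1 held without each array but not with the mean over probe sets (adjusted p = 0.0833). Of 7 probe sets 4 were not dim, and these gave -0.19 to -0.31 in siMyT1 against siControl.

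Rab5c and Rab21 were higher in siMyT1 than in siLSD1, and neither differed from siControl by the test. Rab5c, 1 of the 3 Rab5 genes for early endosome fusion, measured 13.9, 14.3 and 14.4 units on the siMyT1 arrays, 10.6, 7.85 and 11.4 on the siLSD1 arrays and 11.7, 15.7 and 11.8 on the siControl arrays. The siLSD1 arrays were below all others, and the siMyT1 arrays overlapped the siControl arrays. The difference (siMyT1 minus siLSD1 0.52, SE 0.13, adjusted p = 0.0134) was lost without siMyT1 replicate 2 (adjusted p up to 0.0505). Nor did the gene pass with median centring or no intensity trend (adjusted p up to 0.0578). Rab21, which acts in integrin traffic, measured 26.5, 22.2 and 27.4 units on the siMyT1 arrays, 21.3, 18.2 and 20.97 on the siLSD1 arrays and 20.7, 24.1 and 24.1 on the siControl arrays. Its siMyT1 arrays exceeded the siLSD1 arrays and overlapped the siControl arrays. The difference (0.33, adjusted p = 0.0247) was lost without siMyT1 replicate 1 or 3, or siLSD1 replicate 2 (adjusted p up to 0.105). It also did not pass with median centring (log2 value 0.20) or no intensity trend (adjusted p up to 0.373). A second Rab21 probe set, not dim, gave a called difference of 0.46 (adjusted p = 0.0108 in a fit over all probe sets). In siMyT1 against siLSD1, Rab5a gave -0.22 (adjusted p = 0.0559) and Rab5b 0.19 (adjusted p = 0.575). Rab4a, Rab4b and Rab31, the remaining early endosome genes, were called in no comparison.

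None of the 6 genes of recycling endosomes was called. Rab11a, the main Rab of the recycling endosome, gave 0.14 in siMyT1 and 0.15 in siLSD1 against siControl, at 27.5 ± 0.963 units in siMyT1, 27.7 ± 1.88 in siLSD1 and 24.8 ± 0.73 in siControl. Its arrays in either knockdown lay above all siControl arrays, and neither difference passed the test (adjusted p = 0.209 and 0.177). Rab11b and Rab35 gave -0.06 and 0.13 in siMyT1 and -0.06 and 0.02 in siLSD1. Rab15 was not called, and Rab17 and Rab25, known from epithelial cells, were dim in this line.

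Of 9 genes of late endosomes, lysosomes and lysosome-related organelles, Rab32 rose in both knockdowns and Rab12 fell in siMyT1. Rab32, which acts on melanosomes and other lysosome-related organelles and on mitochondria, measured 4.56, 4.56 and 4.96 units on the siMyT1 arrays, 2.47, 2.41 and 2.81 on the siLSD1 arrays and 1.96, 1.98 and 1.75 on the siControl arrays. The 3 groups were fully separate, with siMyT1 highest. The level in siMyT1 was 248% of siControl (log2 fold change 1.23, SE 0.10, adjusted p = 2.09e-05), the largest log2 change of the 59 genes against siControl, and siMyT1 exceeded siLSD1 by 0.83 (SE 0.10, adjusted p = 8.53e-05). The rise in siLSD1, to 135% of siControl (log2 fold change 0.40, SE 0.10, adjusted p = 0.0215), was lost without siLSD1 replicate 3, or siControl replicate 1 or 3 (adjusted p up to 0.121). The call ended as well with the replicate number as a block (adjusted p = 0.0508). The calls for siMyT1 held without each array and in the other settings tried. Both comparisons use the same siControl arrays. Rab32 has a single probe set here. Its window, at chr10:10558158-10558457 of GRCm38.p6, minus strand, holds AAGTT at 2 places and has no GGGCGG box.
Rab32: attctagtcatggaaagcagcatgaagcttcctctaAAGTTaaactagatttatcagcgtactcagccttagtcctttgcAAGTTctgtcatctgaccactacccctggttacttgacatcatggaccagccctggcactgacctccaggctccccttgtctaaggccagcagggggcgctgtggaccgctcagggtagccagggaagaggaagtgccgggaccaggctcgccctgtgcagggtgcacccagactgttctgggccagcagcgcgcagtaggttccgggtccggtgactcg

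Rab12, which takes the transferrin receptor from recycling endosomes towards lysosomes, measured 5.82, 6.02 and 6.97 units on the siMyT1 arrays, 8.55, 6.57 and 7.46 on the siLSD1 arrays and 8.91, 9.3 and 7.64 on the siControl arrays. The siMyT1 arrays were below the siControl arrays and overlapped the siLSD1 arrays. The fall in siMyT1 (log2 fold change -0.45, SE 0.10, adjusted p = 0.022) was lost without siMyT1 replicate 1 or 2, or siControl replicate 1 or 2 (adjusted p up to 0.0876). The call was further lost with the mean over probe sets, suffixed probe sets left out (log2 value -0.26) or no intensity trend (adjusted p up to 0.478). The other Rab12 probe set, which enters that mean and gave the -0.26, was dim at 0.0616 units over all arrays. Rab7, the Rab of late endosomes and lysosomes, gave 0.12 in siMyT1 and 0.06 in siLSD1 against siControl. Rab9, which returns receptors from late endosomes to the Golgi, and Rab24 were not called. Rab38, the closest paralogue of Rab32, was near the dim limit at 0.774 units in siMyT1, 0.697 in siLSD1 and 0.684 in siControl, and was not called. Rab29, Rab7b and Rab9b were dim and not called.

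Of 3 genes linked to the cilium, Rab23, an antagonist of hedgehog signalling, was higher in siMyT1 than in siLSD1 (log2 difference 0.34, SE 0.08, adjusted p = 0.0128). It measured 3.97, 4.28 and 4.01 units on the siMyT1 arrays, 3.13, 3.07 and 3.35 on the siLSD1 arrays and 3.48, 3.99 and 3.64 on the siControl arrays, with the siMyT1 arrays above and the siControl arrays partly overlapping them. The call held without each array but not with median centring (log2 value 0.22) or suffixed probe sets left out (log2 value 0.17, all adjusted p up to 0.476). Rab28 and Rab34 were called in no comparison. Among 9 genes without an assigned role here, Rab39b, a neuronal Rab whose human gene is mutated in X-linked intellectual disability, was lower in siMyT1 than in siLSD1. It measured 5.53, 5.86 and 4.92 units on the siMyT1 arrays, 7.2, 7.05 and 7.17 on the siLSD1 arrays and 6.75, 8.24 and 5.93 on the siControl arrays (log2 difference -0.38, SE 0.10, adjusted p = 0.0201). The siMyT1 arrays were below all others, and the siLSD1 arrays lay within the range of siControl. The call was lost without siMyT1 replicate 3, or siLSD1 replicate 1 or 3 (adjusted p up to 0.0935). Nor did the gene pass with the mean over probe sets (log2 value -0.23) or no intensity trend (adjusted p up to 0.154). Its other probe set, not dim, gave -0.08 (adjusted p = 0.753 in a fit over all probe sets). Rab40b, which has a SOCS box that binds ubiquitin ligase subunits, was dim, at 0.206, 0.312 and 0.225 units on the siMyT1 arrays, 0.217, 0.299 and 0.295 on the siLSD1 arrays and 0.518, 0.494 and 0.454 on the siControl arrays. All arrays of both knockdowns lay below those of siControl, and the difference passed the test in siMyT1 (-0.63, adjusted p = 0.0457) and not in siLSD1 (-0.56, adjusted p = 0.0685). The fall in siMyT1 was lost without siMyT1 replicate 1 or 3, or siControl replicate 1, 2 or 3 (adjusted p up to 0.139). It also did not pass with the smaller pseudocount, the mean over probe sets (log2 value -0.37), suffixed probe sets left out, a fit of only the groups compared or the replicate number as a block (adjusted p up to 0.128). The probe set used for Rab40b has no such suffix, and leaving out suffixed ones kept its log2 value at -0.63 (adjusted p = 0.0549). Rab20, a dim gene, was higher in siMyT1 than in siLSD1 (log2 difference 0.55, adjusted p = 0.0484), a call lost without siMyT1 replicate 2 or 3, or siLSD1 replicate 1, 2 or 3 (adjusted p up to 0.145). The call ended as well with median centring, the smaller pseudocount, suffixed probe sets left out, a fit of only the groups compared or the replicate number as a block (adjusted p up to 0.1). Rab20 has a single probe set, without such a suffix, and leaving out suffixed ones kept its log2 value at 0.55 (adjusted p = 0.0562). Of the remaining genes without an assigned role, Rab19 and Rab42 were dim, and neither they nor Rab36, Rab39, Rab40c and Rab44 were called.

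**Figure D4:**
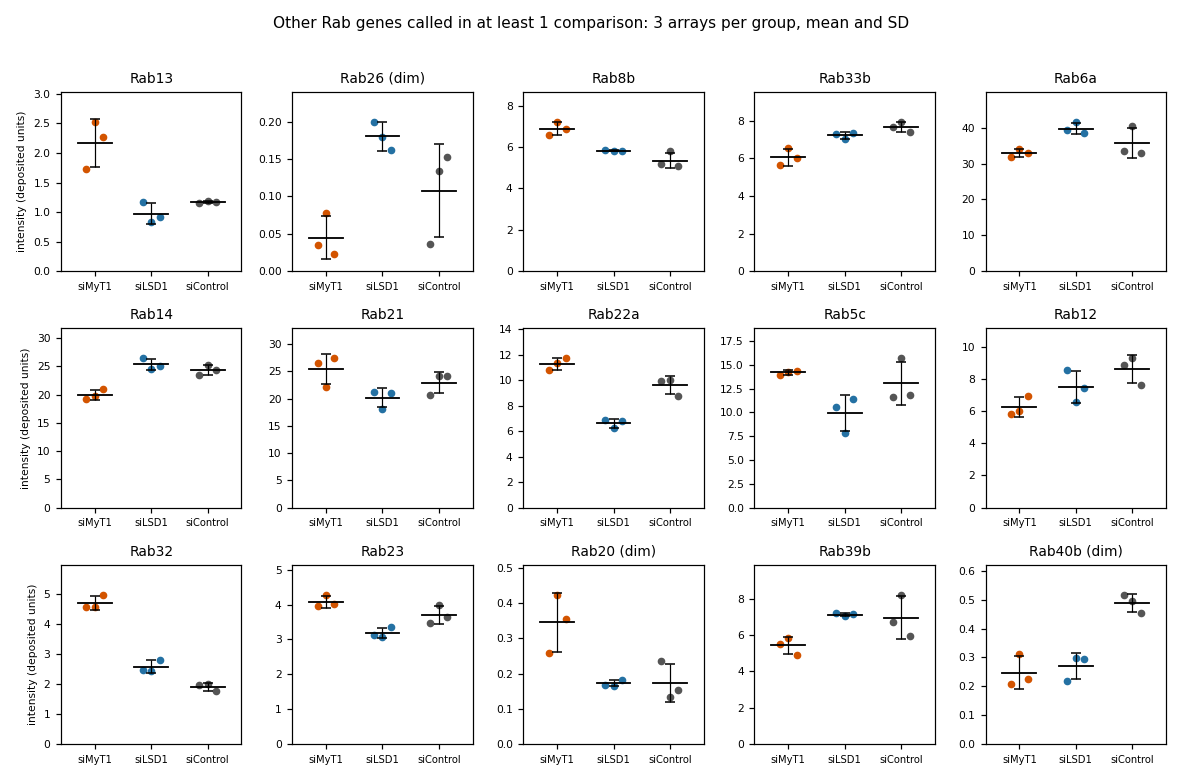
Intensities in deposited units of the 15 Rab genes outside the Rab3 and Rab27 groups that were called in at least 1 comparison, on the 3 arrays of siMyT1, siLSD1 and siControl, with linear axes from 0 (points: arrays, lines: means, bars: SD). The groups are fully separate for Rab22a, Rab32, Rab33b and Rab8b, and the siMyT1 arrays of Rab14 and Rab39b lie below all others.

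The remaining members bound what could be seen. Among the 43 Rab genes that were not dim, the 95% interval reached a median of 0.18 on each side of the estimate (range 0.13 to 0.50), and it lay within 0.5 on either side of 0 for 30 genes in siMyT1 and 33 in siLSD1 against siControl. For the 16 dim genes it reached a median of 0.43, and only 3 and 4 of them had such intervals. The largest differences without a call were, in siMyT1 against siControl, those of Rab20 (0.55, adjusted p = 0.0854), Rab36 (-0.40, adjusted p = 0.167) and Rab25 (0.39, adjusted p = 0.373). In siLSD1 against siControl they were those of Rab40b, given above, Rab5b (-0.44, adjusted p = 0.194) and Rab5c (-0.39, adjusted p = 0.0899), and between the knockdowns those of Rab25 (0.44, adjusted p = 0.215), Rab29 (0.42, adjusted p = 0.136) and Rab9b (0.42, adjusted p = 0.0544). The 5 Rab probe sets with the highest intensity, those of Rab1a, Rab7, Rab2a, Rab10 and Rab6a, had log2 fold changes against siControl between -0.11 and 0.16 and no call in either knockdown. Arrays of the 2 groups did not overlap for 17 Rab genes in siMyT1 against siControl (11 higher, 6 lower), beside 24.0% of all genes (16.5% higher and 7.55% lower). The same held for 14 in siLSD1 against siControl (7 higher, 7 lower), beside 26.8% of all genes (10.7% higher and 16.1% lower), and for 19 in siMyT1 against siLSD1 (12 higher, 7 lower), beside 33.0% of all genes (23.3% higher and 9.70% lower).

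Promoter windows of 300 bases from RefSeq (GRCm38.p6) were matched by symbol for 48 of the 59 genes, 60 windows in all. The Rab windows were rich in G and C, at a median of 61.2% against 52.7% for all 32851 windows, and held a median of 19.5 CpG dinucleotides against 7. The box GGGCGG, searched on both strands, was in 68.3% of Rab windows and 35.7% of all windows, and CCAAT in 43.3% and 37.4%. TATAAA was in 6.7% and 13.6%. AAGTT was in 26.7% of Rab windows and 39.3% of all windows, and the longer AAAGTTT, which contains it, in 3.3% and 4.7%, in the windows of Rab9 and Rab29. Of the called genes, Rab32, Rab13, Rab3a and Rab23 had a window with AAGTT. A match is a description of these letters and shows no binding.

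Genes that act on Rab proteins were counted from 6 lists. Dim genes were 7 of 14 secretory effectors, 4 of 30 exchange factors and 6 of 35 GTPase-activating proteins. They were 2 of 16 endosomal and recycling effectors and 1 of 17 late endosomal and Golgi effectors. The shares of all genes given beside the lists include dim genes. Among genes not dim, 12.5% were called in siMyT1 and 15.3% in siLSD1 against siControl, and 31.2% between the knockdowns. Of 14 measured secretory Rab effectors, 2 rose in siLSD1 and none was called in siMyT1. Myrip, which links Rab27a on granules to myosin and actin, measured 6.02, 7.18 and 6.63 units on the siMyT1 arrays, 14.2, 11.2 and 13.96 on the siLSD1 arrays and 6.0, 6.86 and 7.16 on the siControl arrays. The siLSD1 arrays were at 196% of siControl (log2 fold change 0.95, SE 0.10, adjusted p = 6.34e-05), clear of all other arrays, and the log2 difference of siMyT1 from siLSD1 was -0.96 (adjusted p = 3.32e-05). Both calls held without each array. Syn1, a synaptic vesicle protein that binds Rab3a, rose in siLSD1 (log2 fold change 0.47, SE 0.13, adjusted p = 0.036), which was lost without siLSD1 replicate 1, 2 or 3, or siControl replicate 1 or 3 (adjusted p up to 0.142), and with no intensity trend (adjusted p = 0.0875). Rims3, a short member of the RIM family of active zone proteins, was lower in siMyT1 than in siLSD1 (-0.38, adjusted p = 0.00262). In siLSD1 against siControl the calls were 14.3% of the list, beside 8.90% of all genes, and between the knockdowns 14.3%, beside 18.8%.

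Of 30 exchange factors, 2 rose in siMyT1, and 3 rose and 1 fell in siLSD1. As shares of the list these were 6.67% and 13.3%, beside 7.41% and 8.90% of all genes, with 13.3% called between the knockdowns, beside 18.8%. Rin1, an exchange factor for Rab5, rose in both, at 3.27 ± 0.641 units in siMyT1, 3.25 ± 0.193 in siLSD1 and 2.08 ± 0.137 in siControl (log2 fold changes 0.59 and 0.60, adjusted p = 0.0126 and 0.0086), and Madd, the exchange factor for Rab3, at 6.41 ± 0.561 units in siMyT1, 6.34 ± 0.209 in siLSD1 and 5.06 ± 0.111 in siControl (0.33 and 0.31, adjusted p = 0.0198 and 0.0192). For Rin1 the rise in siMyT1 was lost without siControl replicate 1 (adjusted p up to 0.0523). For Madd the rise in siMyT1 was lost without siMyT1 replicate 2 or 3, or siControl replicate 1 or 3 (adjusted p up to 0.0956), and with median centring, the mean over probe sets (log2 value 0.18) or no intensity trend (adjusted p up to 0.441). In siLSD1 the Madd rise was lost without siLSD1 replicate 1 or 3, or siControl replicate 1 or 3 (adjusted p up to 0.074), and with the mean over probe sets (log2 value 0.071) or no intensity trend (adjusted p up to 0.82). Dennd2a rose in siLSD1 (0.35, adjusted p = 0.0098), and Dennd5a fell (-0.22, adjusted p = 0.0265). The Dennd2a rise was lost without siLSD1 replicate 3 (adjusted p up to 0.0521). The Dennd5a fall was lost without siLSD1 replicate 1 or 3, or siControl replicate 1, 2 or 3 (adjusted p up to 0.112), and with median centring (log2 value -0.14), no intensity trend or the replicate number as a block (adjusted p up to 0.424). Between the knockdowns, Dennd2d (0.77, adjusted p = 0.00771) and Ric1 (0.42, adjusted p = 0.018) were higher in siMyT1 than in siLSD1, and Sbf1 (-0.41, adjusted p = 0.00802) and Dennd2a (-0.30, adjusted p = 0.0133) lower. The Dennd2d difference held without each array but not with suffixed probe sets left out (log2 value 0.40, adjusted p = 0.203). The Sbf1 difference held without each array. The Ric1 difference was lost without siMyT1 replicate 2 or 3, or siLSD1 replicate 3 (adjusted p up to 0.0845), and with median centring or the mean over probe sets (log2 value 0.25; all adjusted p up to 0.234). The Dennd2a difference was lost without siMyT1 replicate 2, or siLSD1 replicate 3 (adjusted p up to 0.0589).

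Of 35 GTPase-activating proteins, 3 rose and 3 fell in siMyT1 and 1 rose in siLSD1. The calls were 17.1% of the list in siMyT1 against siControl and 2.86% in siLSD1 against siControl, beside 7.41% and 8.90% of all genes, and 14.3% between the knockdowns, beside 18.8%. Over all genes not dim these shares were 12.5%, 15.3% and 31.2%. In siMyT1 Tbc1d14 (0.24, adjusted p = 0.0392) and Usp6nl (0.27, adjusted p = 0.0435) rose, and Tbc1d30 (-0.67, adjusted p = 0.0402) and Sgsm2 (-0.47, adjusted p = 0.042) fell, beside Tbc1d1 (0.51, adjusted p = 0.0474) and Evi5l (-0.30, adjusted p = 0.0436), whose calls were not checked without single arrays. Each of the first 4 was lost on leaving out any 1 of 4 or 5 of the 6 arrays, with adjusted p up to 0.155, 0.155, 0.133 and 0.162. Rabgap1l, which acts on endosomal Rabs, rose in siLSD1 (0.56, adjusted p = 0.0212), which was lost without siLSD1 replicate 1, 2 or 3, or siControl replicate 1 or 3 (adjusted p up to 0.0859), and with the mean over probe sets (adjusted p = 0.107). For the first 4, other settings ended the calls too. For Tbc1d14 these were median centring, the mean over probe sets, suffixed probe sets left out, a fit of only the groups compared, no intensity trend and the replicate number as a block (adjusted p up to 0.633). For Usp6nl they were median centring, a fit of only the groups compared, no intensity trend and the replicate number as a block (adjusted p up to 0.127). For Tbc1d30 these were the smaller pseudocount, the mean over probe sets (log2 value -0.35), a fit of only the groups compared and the replicate number as a block (adjusted p up to 0.121), and for Sgsm2 the larger pseudocount, a fit of only the groups compared, no intensity trend and the replicate number as a block (adjusted p up to 0.0817). Sgsm2 was lower in siMyT1 than in siLSD1 (-0.74, adjusted p = 0.00138), as were Tbc1d12 (-0.33, adjusted p = 0.00417) and Rabgap1l (-0.54, adjusted p = 0.0138), and Tbc1d10a (0.47, adjusted p = 0.00896) and Tbc1d5 (0.36, adjusted p = 0.0151) were higher. The Sgsm2 difference held without each array. The Tbc1d12 difference held without each array but not with the mean over probe sets (log2 value -0.14, adjusted p = 0.418). The Rabgap1l difference was lost without siLSD1 replicate 3 (adjusted p up to 0.052), and with the mean over probe sets (log2 value -0.053, adjusted p = 0.84). The Tbc1d10a difference was lost without siMyT1 replicate 3 (adjusted p up to 0.0538), and with the mean over probe sets (log2 value 0.21, adjusted p = 0.307).

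Of 16 endosomal and recycling effectors 1 rose in siMyT1, and in the direct comparison with siLSD1, 4 were higher and 1 lower. Rab11fip5, a Rab11 effector, measured 3.32 ± 0.535 units in siMyT1, 2.0 ± 0.114 in siLSD1 and 2.27 ± 0.255 in siControl, and its rise in siMyT1 (0.50, adjusted p = 0.0315) was lost without siMyT1 replicate 2 or 3, or siControl replicate 1 or 3 (adjusted p up to 0.125), and with the mean over probe sets, a fit of only the groups compared or no intensity trend (adjusted p up to 0.0629). The excess of siMyT1 over siLSD1 was 0.66 for Rab11fip5 (adjusted p = 0.0027), 0.39 for Rufy1, 0.37 for the Rab5 effector Appl1 and 0.59 for Rab11fip1 (adjusted p = 0.00345, 0.00887 and 0.0276). The Rab11fip5 difference held without each array. The Rufy1 difference held without each array but not with median centring (adjusted p = 0.062). The Appl1 difference held without each array but not with the mean over probe sets (log2 value 0.22, adjusted p = 0.155). The Rab11fip1 difference was lost without siMyT1 replicate 2 or 3, or siLSD1 replicate 2 or 3 (adjusted p up to 0.11). Rabep1, a Rab5 effector, was lower (-0.31, adjusted p = 0.0297). The Rabep1 and Tbc1d5 calls were not checked without single arrays. Of the list, 6.25% was called in siMyT1 against siControl, beside 7.41% of all genes, and 31.2% between the knockdowns, beside 18.8%. Over all genes not dim these shares were 12.5% and 31.2%. Among 17 late endosomal and Golgi effectors, Mical1, which binds Rab8 family proteins and oxidises actin, rose in siMyT1. It measured 4.74, 5.32 and 4.98 units on the siMyT1 arrays, 3.37, 3.45 and 3.21 on the siLSD1 arrays and 3.52, 3.55 and 3.16 on the siControl arrays, with siMyT1 above all other arrays (log2 fold change 0.53, SE 0.08, adjusted p = 0.00215), and the call held without each array. In siMyT1 against siLSD1 it was higher (0.56, adjusted p = 0.000494), as was Osbpl1a (0.54, adjusted p = 0.00646), while Vps41, a subunit of the HOPS tether, was lower (-0.35, adjusted p = 0.00506). The Osbpl1a difference held without each array but not with suffixed probe sets left out (log2 value 0.19, adjusted p = 0.398). The Vps41 difference held without each array but not with suffixed probe sets left out (log2 value -0.14, adjusted p = 0.332). Of this list, 5.88% was called in siMyT1 against siControl and 17.6% between the knockdowns, beside the same 7.41% and 18.8%. Of 6 measured genes for GDI, Rab escort and prenylation none was called against siControl in either knockdown, and Rabif was lower in siMyT1 than in siLSD1 (-0.33, adjusted p = 0.017). The Rabif difference was lost without siMyT1 replicate 1, or siLSD1 replicate 1 or 3 (adjusted p up to 0.0747), and with the mean over probe sets (log2 value -0.03), suffixed probe sets left out or no intensity trend (adjusted p up to 0.929).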

How the data were processed

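The deposited values are linear array intensities, 1 for each of 45101 probe sets on each of 9 arrays. How the authors summarised, background-corrected and scaled these deposited intensities is not given in the sources used here, so their unit is unknown. Of the probe sets, 35890 were in the platform annotation and 9211 were not. Among those in it, 34945 had a single gene symbol and 932 had several, and only those with a single symbol were used. Each of 18193 genes was represented by its brightest probe set. All values were multiplied by 163.6, which sets a trimmed mean of 500, a pseudocount of 32 was added and log2 taken. A gene below 100 on that scale is dim. Group means were fitted over all 9 arrays with limma 3.58.1 in R 4.3.3, with an intensity trend and Benjamini-Hochberg adjustment over all genes (two-sided, threshold 0.05). An exact permutation test of 3 arrays against 3 cannot go below p = 0.1. The procedure was tested on simulated data. The rule named every Rab3 and Rab27 gene, every called member, the 5 brightest, the 3 largest uncalled per comparison and up to 4 called genes per pathway list and comparison. Values of other genes were picked after they were seen. The members and lists were chosen with earlier results of these data known. Alternatives covered scaling, pseudocount, dim filter, probe set choice, variance model, replicate block and leaving out each array.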

Additional observations from a re-analysis of the deposited data

How the results depend on the processing

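Alternatives were run for the 30 named Rab genes. Their 25 calls gave 397 values under the alternatives, of which 309 kept the call and the direction, 86 lost the call and 2 reversed. Their 65 differences without a call gave 1019 values, of which 27 gained a call and 54 changed sign without one. The 8 Rab calls in siMyT1 against siControl became 13 after quantile normalization, 5 with the mean over probe sets, 5 without the intensity trend, and 4 to 8 without single arrays. The share called over all genes, 7.41%, became 13.5%, 4.74%, 4.20%, and 3.57% to 7.97% in the same settings. The 3 in siLSD1 against siControl became 8 after quantile normalization, 5 with a filter on dim genes, and 1 to 3 without single arrays. Here the share of all genes tested, 8.90%, became 15.4%, 22.6%, and 5.30% to 7.24%. The 14 in siMyT1 against siLSD1 became 8 without the intensity trend and 8 to 12 without single arrays. Rab3a in siLSD1 against siControl reversed to 0.17 (limma adjusted p = 0.519) without suffixed probe sets, and Rab8b in siMyT1 against siLSD1 to -0.023 (adjusted p = 0.942) with the mean over probe sets. In these cases other probe sets were read, and the other Rab8b probe set was dim, at 0.0625 units. The mean over probe sets takes in dim probe sets for other genes too. The causes of the other changes were not tested. With the replicate number as a block the counts were 7, 2 and 11, beside 5.14%, 6.92% and 16.1% of all genes. The numbers share no stated culture or day, and deviations of same-numbered arrays correlated between -0.026 and 0.038, with the best match of the same number in 5 of 18 cases, so the block was not used. Low signal limits the 16 dim Rab genes.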
